A study of Homo sapiens with 4 samples.

Results

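The 43 nuclear genes described here encode the subunits of respiratory complexes II, III and IV and of ATP synthase (complex V) that are made outside the mitochondria, together with cytochrome c. They were chosen by name, as 4 subunits of complex II, 9 of complex III, 12 of complex IV, 17 of complex V and the gene CYCS, and all 43 were found among the 62700 genes of the count table. The question was how the mRNA counts of these genes differed between labelled and unlabelled libraries, by complex, by gene length and by abundance.

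Complex II oxidises succinate and passes the electrons to ubiquinone, complex III moves them on to cytochrome c, complex IV hands them to oxygen, and complex V uses the resulting proton gradient to make ATP. Complex II is built from nuclear genes alone, whereas complexes III, IV and V each join nuclear subunits to a few subunits whose mRNAs are transcribed and translated in the mitochondrial matrix. The mRNAs of the nuclear subunits are translated in the cytosol, some of them on ribosomes close to the outer membrane, and the proteins are then imported. These mRNAs are therefore outside the compartment to which the construct of this study was sent.

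RNA was sequenced from 4 libraries of HEK293T, a widely used line from human embryonic kidney, and the labels call the cells a stable clone derivative. Every cell carried the genotype CMV-V5-MITO-PRADA, in which the label CMV names the promoter, V5 the tag and MITO the mitochondrial matrix as the destination. Cells of all 4 libraries received 100 µM 4-thiouridine (s4U), a uridine analogue, for 5 h, followed by 0.5 mM alkyne phenol for 30 min, still in the presence of s4U. The 2 labelled libraries came from cells that were also given 10 mM D-amino acid for 30 min, which starts the labelling, and the 2 unlabelled libraries from cells that were not. The design text calls the material labelled and enriched, and nothing in the labels tells whether the unlabelled cells went through the same enrichment. The titles speak of biological replicates without describing them, and the p-values reflect the spread among these 4 libraries alone, which may be partly technical. Because the cells were analysed in bulk, fewer cells with a transcript and less of it per cell cannot be told apart, and with enrichment a difference in capture cannot be told apart from either.

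The libraries held 8172347 and 5771795 assigned fragments (unlabelled 1 and 2) and 9380258 and 12287451 (labelled 1 and 2). The mitochondrial chromosome took 9.04% and 10.4% of the unlabelled and 27.0% and 30.9% of the labelled fragments. All 5 markers of HEK293 cells were above the expression filter, with a summed level of 142 to 179 CPM (counts per 1000000, scaled by TMM). Most of that sum was LIN28B, at 113 to 142 CPM, while NEFM was at only 0.45 to 2.5 CPM. None of the 5 blood markers passed it, with CD3E and HBB at 0 in every library. Of the 5 fibroblast and endothelium markers only COL1A1 passed, at 11.8 to 20.5 CPM, with COL1A2 and DCN at 0.

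No subunit mRNA differed between labelled and unlabelled libraries at an adjusted p under 0.05 in edgeR's quasi-likelihood test, although most had lower values in the labelled libraries. All 43 genes were tested, and 0 passed, against 54 of 18973 genes tested (0.285%). DESeq2 also called 0, against 0.511% of genes, and its smallest adjusted p among the members was 0.178. At an unadjusted p under 0.05 there were 12 members in edgeR, all lower in labelled libraries, where 5.88% of all genes were, and 11 in DESeq2, again all lower, against 2.41%. The log2 fold change was below 0 for 40 of the 43, against 52.0% of all genes tested and 46.1% of protein-coding genes. The median was -0.18, beside -0.01 for all genes and 0.02 for protein-coding genes. In 24 members both labelled libraries lay below both unlabelled libraries, against 22.4% of all genes, and 1 member lay above them, against 22.2%.

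The 12 members with an unadjusted p under 0.05 were UQCRQ of complex III, 5 of complex IV (COX5B, COX7B, COX5A, COX8A and COX6B1) and 6 of complex V (ATP5F1E, ATP5ME, ATP5PO, ATP5MK, ATP5MC3 and ATP5MC1). No member of complex II was among them. The median log2 fold change was -0.15 in complex II with 4 of 4 below 0, and -0.11 in complex III with 8 of 9 below 0. It was -0.26 in complex IV with 12 of 12 below 0, and -0.21 in complex V with 16 of 17 below 0. The differences between the complexes were not tested. The members ranged from ATP5ME at -0.73 to ATP5F1A at 0.29, with standard errors of 0.12 to 0.20.

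**Figure D1:**
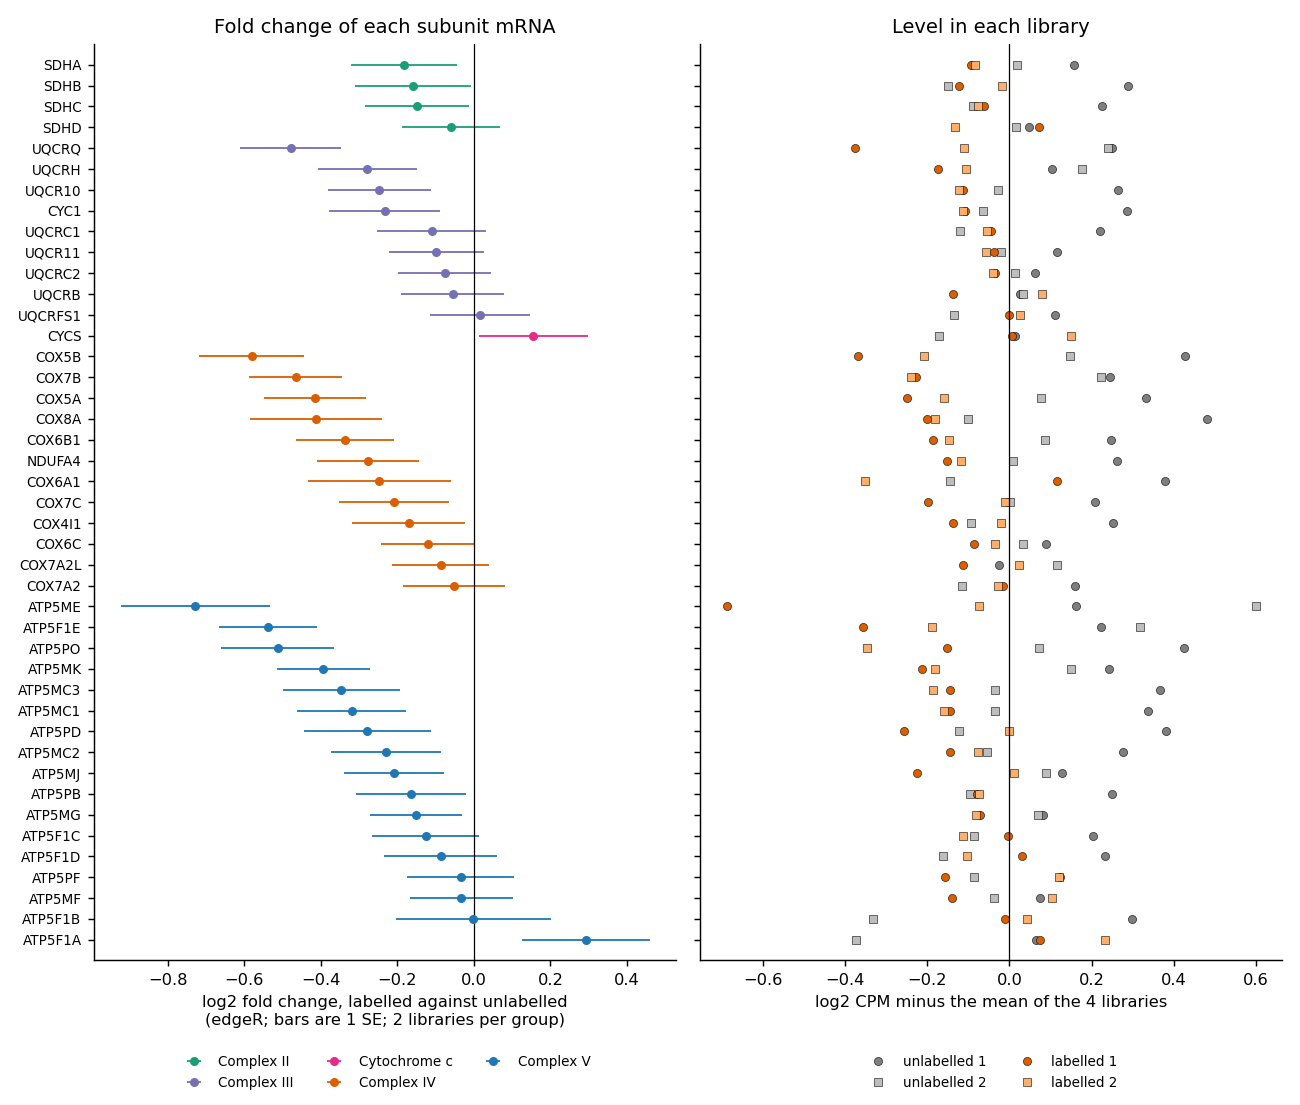
The left panel plots the log2 fold change (labelled against unlabelled, edgeR) of each of the 43 mRNAs on the x axis by complex, with bars of 1 standard error, and the right panel the log2 CPM of each library minus the mean of the 4. Of the 43 points 40 lie below 0, and the darker grey points (unlabelled 1) are the farthest to the right for 34 members.

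Complex II couples the citric acid cycle to the chain through SDHA, the flavoprotein that binds succinate, SDHB, the iron-sulfur subunit, and the membrane anchors SDHC and SDHD. SDHB (chromosome 1, 17018664 to 17054032) had 71.6 and 52.8 CPM (unlabelled 1 and 2) against 53.9 and 57.9 CPM (labelled 1 and 2), an order kept for all members below. Only unlabelled 1 was high, the groups overlapped, and the log2 fold change was -0.16 ± 0.15 (SE, edgeR adjusted p 0.710). SDHC (chromosome 1, 161314381 to 161363206), the shortest by annotated length and the highest per kilobase of the 4, had the same shape. Its levels were 85.1 and 68.5 CPM against 69.7 and 69.1 CPM, and its log2 fold change was -0.15 ± 0.14 (edgeR adjusted p 0.694). Without unlabelled 1 both turned positive, SDHB to 0.12 and SDHC to 0.05.

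SDHA (chromosome 5, 218303 to 257082), the longest of the 4, had 27.1 and 24.6 CPM against 22.7 and 22.9 CPM. Its groups did not overlap, but the log2 fold change of -0.18 ± 0.14 missed the threshold (edgeR adjusted p 0.634). The count of SDHA is among the least certain. Copies named SDHAP in the table held 51.8% of the fragments of SDHA and its copies together, and 21.7% of its exon bases are shared with another gene. SDHD was at -0.06, with labelled 1 the highest and labelled 2 the lowest of the 4 libraries.

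Complex III carries its electrons through the Rieske protein UQCRFS1 and cytochrome c1 (CYC1), held between the large core proteins UQCRC1 and UQCRC2, and has 5 small subunits around them. The median log2 fold change of the core, Rieske and c1 genes was -0.09, with 0 of 4 lower at an edgeR unadjusted p under 0.05. The 5 small subunits had a median of -0.25 and 1 such member, UQCRQ, where 5.88% of all genes tested were lower. Counts in sets this small do not tell them apart, and the difference was not tested. UQCRQ (chromosome 5, 132866630 to 132868847), a small subunit that lies against cytochrome b, had 94.8 and 94.15 CPM against 61.45 and 73.9 CPM. The unlabelled pair was close together and both labelled libraries were lower, at a log2 fold change of -0.48 ± 0.13 (edgeR p 0.00347, adjusted p 0.246). Its exons share 11.5% of their bases with GDF9 on the opposite strand.

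UQCRH, the hinge protein that helps cytochrome c1 meet cytochrome c, had the highest level per kilobase in complex III, at 128 CPM per kilobase. Its libraries stood at 183 and 192.5 CPM against 151 and 158 CPM, without overlap, with a log2 fold change of -0.28 ± 0.13 (adjusted p in edgeR 0.440). UQCR10, the shortest of the 9 by annotated length, had 59.8 and 48.9 CPM against 46.1 and 45.8 CPM. Here too the groups did not overlap, at -0.25 ± 0.13 (edgeR adjusted p 0.504), and 24.5% of its exon bases are shared with a gene on the opposite strand. Without unlabelled 1 its log2 fold change was -0.059. UQCRB, the longest by annotated length, overlapped between the groups, with 161 and 162 CPM against 143.5 and 167 CPM and a log2 fold change of -0.06 ± 0.13 (adjusted p in edgeR 0.907). The Rieske gene UQCRFS1 was the 1 member of complex III above 0, at 0.02 ± 0.13.

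Cytochrome c, the soluble carrier between complexes III and IV, is encoded in somatic cells by CYCS (chromosome 7, 25118656 to 25125260). It was 1 of only 3 members with a positive log2 fold change, at 0.15 ± 0.14 (edgeR adjusted p 0.699). Its libraries stood at 251 and 221 CPM against 249.5 and 275 CPM, and the groups overlapped. Of the fragments on CYCS and its 42 named pseudogenes together, 3.69% were on the pseudogenes.

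Complex IV had the lowest median of the 4 complexes, and 8 of its 12 members lay lower in both labelled libraries than in either unlabelled one, against 22.4% of all genes tested. COX5B (chromosome 2, 97646062 to 97648383) and COX5A (chromosome 15, 74919791 to 74938083) encode the pair of subunits that face the matrix. COX5B had 83.6 and 68.8 CPM against 48.2 and 53.9 CPM. Both labelled libraries were low, by a gap about as wide as the one between the unlabelled pair, and the log2 fold change of -0.58 ± 0.14 had the smallest edgeR p of all 43 members (p 0.00119, adjusted p 0.157). COX5A had 101 and 84.3 CPM against 67.3 and 71.6 CPM, also without overlap, at -0.42 ± 0.13 (edgeR adjusted p 0.3055).

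COX7B (chromosome X, 77899440 to 77907376), a small membrane-spanning subunit, had 119 and 118 CPM against 86.2 and 85.4 CPM. Both pairs agreed closely, and the log2 fold change was -0.47 ± 0.12 (edgeR adjusted p 0.220). COX8A (chromosome 11, 63974620 to 63976543), the smallest annotated gene and the highest per kilobase of all 43 at 279.6 CPM per kilobase, showed another shape. Its levels were 189, 126, 118 and 119.5 CPM in the order unlabelled 1, unlabelled 2, labelled 1 and labelled 2. Unlabelled 1 stood apart from the 3 others, so that the log2 fold change of -0.41 ± 0.17 (edgeR adjusted p 0.399) shrank to -0.06 without that library.

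At the other end of complex IV, COX7A2L, which links complexes III and IV into supercomplexes and is the longest of the 12 by annotated length, overlapped between the groups. It had 58.9 and 64.9 CPM against 55.4 and 60.9 CPM, and stood at -0.09 ± 0.13 (edgeR adjusted p 0.820). COX7A2, a small membrane subunit related to it, was at -0.05. NDUFA4, named for complex I but a subunit of complex IV, was at -0.28 and COX4I1, the largest nuclear subunit, at -0.17.

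ATP synthase has a catalytic F1 head, a peripheral stalk, a rotating c ring and small membrane subunits that join its dimers. In log2 fold change the median of the 5 head genes was -0.09, of the 4 stalk genes -0.22, of the 3 c ring genes -0.32 and of the 5 membrane genes -0.21. The lowest and the highest member of the head were ATP5F1E and ATP5F1A, so the median hid a wide range there. ATP5F1E (chromosome 20, 59025475 to 59032345), the small epsilon subunit, had 106 and 114 CPM against 71.25 and 80.0 CPM. Its labelled libraries were both far below the unlabelled pair, at -0.54 ± 0.13 (edgeR adjusted p 0.157). Its exons share 23.2% of their bases with TUBB1 on the opposite strand.

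ATP5F1A (chromosome 18, 46080248 to 46104334), the alpha subunit and the longest coding sequence of complex V, had 305 and 225 CPM against 307 and 342.5 CPM. It was the only member for which both labelled libraries lay above both unlabelled ones, by 306.9 against 304.8 CPM at the closest, and its log2 fold change was 0.29 ± 0.17 (edgeR adjusted p 0.525). With scaling by library size alone it was -0.06. ATP5F1B, the catalytic beta subunit and the most abundant of the 43, had 700.1 and 452 CPM against 565 and 586 CPM. The labelled libraries fell between the unlabelled pair, and the log2 fold change was -0.0018 ± 0.20.

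In the membrane part, ATP5ME (chromosome 4, 672436 to 674330), subunit e of the dimer interface, had the lowest log2 fold change of all members, at -0.73 ± 0.20 (edgeR adjusted p 0.2335). Its libraries stood at 40.5 and 54.9 CPM against 22.5 and 34.4 CPM. The groups did not overlap, but both pairs were spread widely, and 61.3% of its exon bases are shared with MYL5 on the opposite strand. ATP5MK, another small subunit of the dimer interface and the shortest gene of complex V by annotated length, had 77.8 and 73.0 CPM against 56.8 and 58.1 CPM, at -0.39 ± 0.12 (edgeR adjusted p 0.3035). Here the pairs were narrow and well apart.

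In the peripheral stalk, ATP5PO, which ties the stalk to the top of the head, had 47.4 and 37.1 CPM against 31.8 and 27.8 CPM. Both labelled libraries were lower, at -0.51 ± 0.15 (edgeR adjusted p 0.271). Its stalk partner ATP5PF was at -0.035, with 37.3% of its exon bases shared with GABPA and JAM2. The 3 c ring genes encode the same mature protein behind different import signals, and ATP5MC3, ATP5MC1 and ATP5MC2 were at -0.35, -0.32 and -0.23. Each was lower without overlap between the groups, as were 22.4% of all genes tested. For ATP5MC2 the gap was narrow, with 148.9 CPM in unlabelled 2 and 146.8 CPM in labelled 2. Without unlabelled 1 the 3 genes stood at -0.10, -0.087 and -0.023, and without unlabelled 2 at -0.53, -0.48 and -0.38.

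The 2 unlabelled libraries differed from each other for most members, and the result depended on which of them was used. Unlabelled 1 held the highest value of the 4 libraries for 34 of 43 members and the lowest for 0, and labelled 1 held the lowest for 21. The median member was 0.25 lower in unlabelled 2 than in unlabelled 1 on the log2 CPM scale (-0.25, with 38 of 43 lower). Against unlabelled 1 the labelled libraries were at -0.33 and -0.30, and against unlabelled 2 at -0.10 and -0.07. The 2 labelled libraries differed by 0.03. Over all genes tested these medians were all within -0.01 and 0.00, and the median absolute difference was 0.257 between the unlabelled libraries and 0.141 between the labelled ones. The part of this library difference in the results was not tested further than by leaving libraries out.

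Leaving out a library moved the result in both directions. Without unlabelled 1 the members' median was -0.03, with 26 of 43 below 0 against 50.4% of genes, and 10 members passed the threshold, against 19.0% of the genes tested in that fit. Of these, 7 were lower (UQCRQ, UQCRH, COX5B, COX7B, ATP5ME, ATP5F1E and ATP5MK) and 3 higher (ATP5F1A, ATP5F1B and CYCS). By role, that fit gave medians of 0.04 for the core, Rieske and c1 genes of complex III and -0.059 for its small subunits. In complex V it gave 0.16 for the head, 0.04 for the stalk, -0.087 for the c ring and -0.16 for the membrane genes. Without unlabelled 2 the median was -0.30 and 21 members passed, all lower, against 4.61% of genes. Without labelled 1 edgeR passed 0 members, with 1 at an unadjusted p under 0.05, against 0.449% of genes passed, and without labelled 2 only ATP5ME did, against 0.279%. Both fits that left out an unlabelled library used the same labelled pair, so a member low in both was not seen independently. These fits keep 1 unlabelled library, which is assumed to vary like the labelled pair. With all 4 libraries and no expression filter, COX5B and ATP5ME passed as lower, against 0.761% of genes. With scaling by library size alone 34 members passed, all lower, against 14.5% of genes, and all 43 were below 0, but that scaling moves the median of all genes to -0.37.

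**Figure D2:**
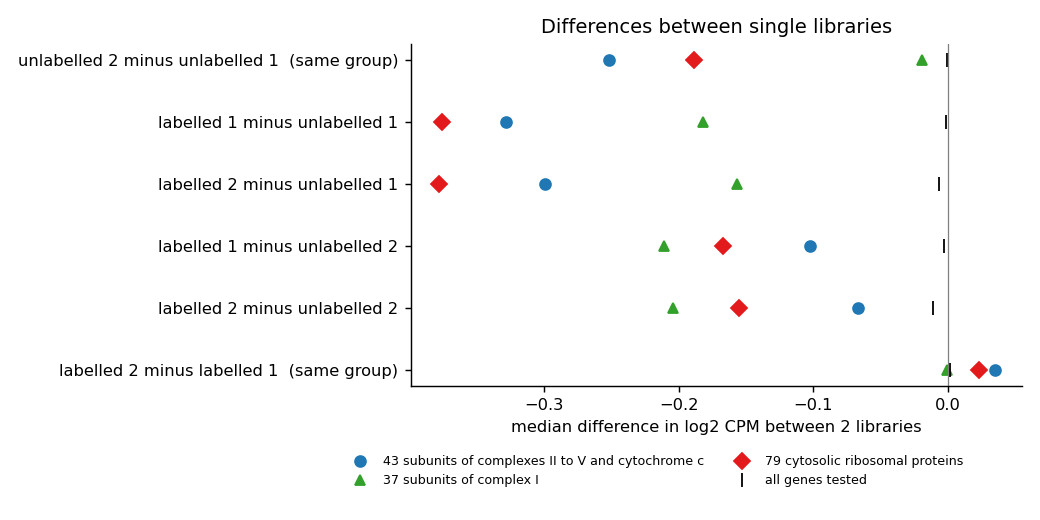
Each row compares 2 single libraries, and the x axis gives the median difference in log2 CPM for the 43 members (circles), 37 complex I subunits (triangles), 79 cytosolic ribosomal proteins (diamonds) and all genes tested (bars). The members differ by -0.25 between the 2 unlabelled libraries, and by -0.33 to -0.07 between labelled and unlabelled libraries.

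Most of these subunits are very small proteins, and the class with the shortest coding sequences had the lowest median. In the 15 members with up to 300 coding bases the median log2 fold change was -0.28 and 15 of 15 were below 0, while the 268 protein-coding genes of that size had a median of -0.05. From 300 to 600 bases the 17 members had a median of -0.15, beside 0.00 for 1388 genes. From 600 to 1200 bases the 6 members had -0.16 beside 0.04, and from 1200 to 2400 bases the 5 members, all large core or head subunits or SDHA, had -0.08 beside 0.04. Single members did not follow that order, as COX5B with 390 coding bases was at -0.58 and ATP5PO with 642 at -0.51, while UQCR11 with 171 stood at -0.098. By annotated length the medians of the members were in no steady order. They were -0.39 up to 1500 bases, -0.11 up to 2500, -0.23 up to 4000, -0.09 up to 8000 and -0.10 above that. All protein-coding genes of these classes had medians of -0.04, 0.03, 0.06, 0.05 and -0.03. Across the 43 genes the log2 fold change had a Spearman correlation of 0.38 with coding length and of 0.35 with annotated length, where all 13494 protein-coding genes had -0.05 and -0.09. Over the 41 members without ATP5F1A and CYCS these correlations were 0.37 and 0.26. Genes share their libraries and are not replicates, so these are descriptions. Without unlabelled 2 the correlation with coding length was 0.15, and without unlabelled 1 the correlation with annotated length was 0.13.

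**Figure D3:**
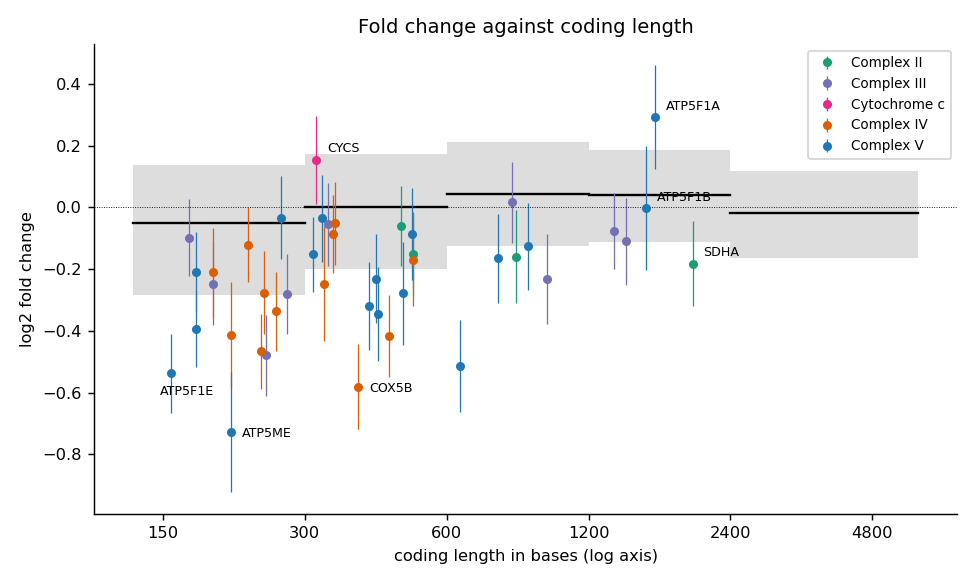
The log2 fold change (y axis, bars of 1 standard error) of each member is plotted against its coding length in bases (log axis), and black lines with grey boxes give the median and quartiles of all protein-coding genes of each length class. The 15 members with up to 300 coding bases all lie below 0, with a median of -0.28 against the -0.05 of all genes of that size.

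s4U is built into RNA in place of uridine. To show how many such positions a short subunit mRNA holds, the coding sequences of 3 members from the lower end are given in DNA letters, 1 from each of complexes III, IV and V, with each T (uridine in the mRNA) in capitals. UQCRQ has 63 in 249 bases, COX7B 58 in 243 and ATP5F1E 29 in 156. They are the transcripts of GENCODE 29 on GRCh38, and the stop codon is included.
UQCRQ: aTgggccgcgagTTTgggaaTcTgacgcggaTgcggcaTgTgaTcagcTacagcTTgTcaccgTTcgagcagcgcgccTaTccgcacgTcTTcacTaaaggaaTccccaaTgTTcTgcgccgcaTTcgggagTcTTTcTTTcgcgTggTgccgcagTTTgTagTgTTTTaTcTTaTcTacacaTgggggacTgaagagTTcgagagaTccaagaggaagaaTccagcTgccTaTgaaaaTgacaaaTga
COX7B: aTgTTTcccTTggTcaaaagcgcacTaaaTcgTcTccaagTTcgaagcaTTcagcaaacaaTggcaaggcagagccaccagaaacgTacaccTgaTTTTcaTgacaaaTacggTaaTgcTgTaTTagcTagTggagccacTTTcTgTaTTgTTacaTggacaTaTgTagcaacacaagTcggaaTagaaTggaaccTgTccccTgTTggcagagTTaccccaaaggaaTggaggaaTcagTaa
ATP5F1E: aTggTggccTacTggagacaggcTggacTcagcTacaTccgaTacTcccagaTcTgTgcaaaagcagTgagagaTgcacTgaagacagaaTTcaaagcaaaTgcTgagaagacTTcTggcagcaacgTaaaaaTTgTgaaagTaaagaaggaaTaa
By comparison the coding sequence of ATP5F1A holds 467 in 1662 bases. As a share of the coding bases, T made up 16.0% to 30.3% over the 43 members, with a median of 23.9%. The log2 fold change had a Spearman correlation of 0.24 with that share and of -0.12 with the share of G and C (n = 43). Untranslated ends also carry uridines and were not counted here, and the part of uridine number in the log2 fold changes was not tested.

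Among the 26 members made with a cleaved presequence the median was -0.17 on the log2 scale, and among the 15 made without one it was -0.25. The second group holds most of the small subunits of complex III and the membrane subunits of ATP synthase, so protein size and import signal move together in these genes. UQCRH and COX7A2L were placed in neither group.

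The members were abundant mRNAs, with counts of 163 to 6287 fragments in a library. Their mean levels lay between 24.3 CPM for SDHA and 576 CPM for ATP5F1B. Per kilobase of annotated length they ran from 2.795 for SDHA to 279.6 for COX8A, with a median of 38.4 CPM per kilobase. Annotated length counts every exon base of every transcript of a gene, and it is 12600 bases for UQCRB with 336 coding bases, so a level per kilobase can understate such a gene. Between 50 and 100 CPM the 17 members had a median of -0.21 in log2 fold change, and between 100 and 200 CPM the 15 members had -0.23, where 2632 and 1207 protein-coding genes had 0.04 and 0.05. Above 200 CPM stood only ATP5F1B, ATP5F1A, CYCS and COX7C, with a median of 0.08 beside 0.05 for 550 genes. The Spearman correlation with mean CPM was 0.22 over the members and 0.12 over all protein-coding genes.

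The subunits made inside the matrix had positive log2 fold changes. MT-CYB, which encodes cytochrome b at the centre of complex III, had 4582 and 5122 CPM against 20110 and 21726 CPM. It rose in labelled libraries by a log2 value of 2.11 ± 0.36 (edgeR adjusted p 0.0289). MT-CO3 of complex IV rose by 1.96 ± 0.35 (adjusted p 0.0414), while MT-CO1 at 2.18 and MT-CO2 at 2.08 had similar sizes but adjusted p-values of 0.150 and 0.0845. In complex V, MT-ATP6, the proton channel, was at 1.76 (adjusted p 0.0977), and MT-ATP8, whose gene overlaps MT-ATP6, was at 0.36 (adjusted p 0.697).

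Set side by side within complexes III, IV and V, the nuclear shares were lower and the mitochondrial shares higher in both labelled libraries. The 9 nuclear genes of complex III took 0.119% and 0.113% of unlabelled and 0.0819% and 0.0793% of labelled fragments, while MT-CYB took 0.5035% and 0.588% against 1.84% and 1.84%. For complex IV there were 18.4 and 21.9 mitochondrially encoded fragments per nuclear fragment in unlabelled libraries and 98.9 and 110.0 in labelled libraries. For complex III these ratios were 4.24 and 5.19 against 22.45 and 23.2, and for complex V 3.34 and 5.86 against 12.0 and 13.2. In all 3 complexes both labelled libraries lay above both unlabelled ones. These are ratios of raw fragments and do not depend on how the libraries were scaled.

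The nuclear subunits' share depended on whether mitochondrial fragments were part of the total. The 43 members together took 0.635% and 0.5501% of unlabelled and 0.425% and 0.411% of labelled fragments, a ratio of 0.706. As a share of fragments outside the mitochondrial chromosome they took 0.6985% and 0.614% against 0.5825% and 0.595%, a ratio of 0.897. On that base complex IV had a ratio of 0.828, complex III 0.883, complex II 0.911 and complex V 0.9245, and cytochrome c stood at 1.11. The ratio of complex V rested on unlabelled 1, since its shares were 0.316% and 0.262% in unlabelled against 0.264% and 0.271% in labelled libraries, both of the latter above unlabelled 2. Counting error on 31752 to 51923 fragments a library is small beside the difference between the 2 unlabelled libraries.

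**Figure D4:**
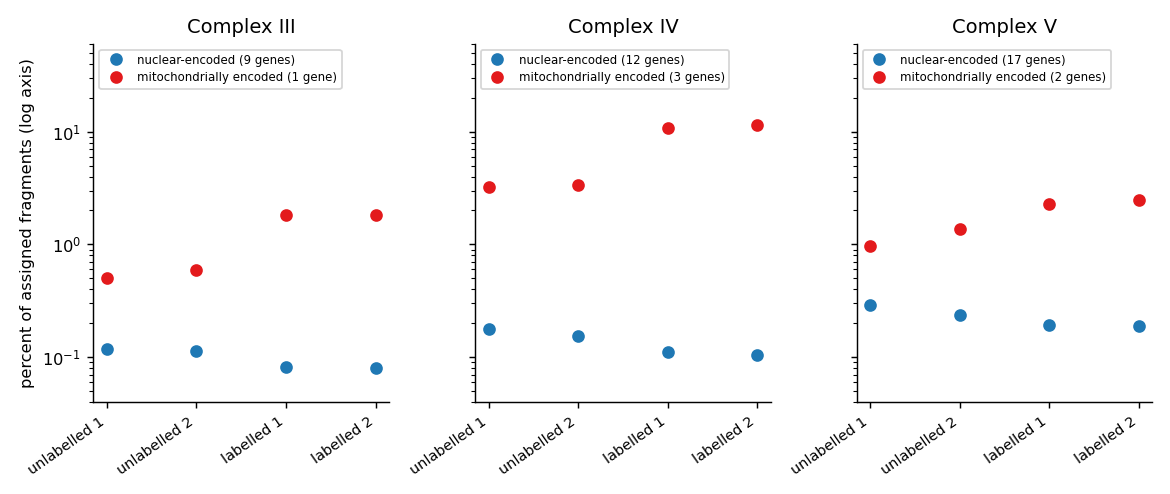
Points give the percent of assigned fragments (y axis, log scale) in each of the 4 libraries for the nuclear-encoded and the mitochondrially encoded subunits of complexes III, IV and V. The nuclear share is lower and the mitochondrial share higher in both labelled libraries than in both unlabelled ones.

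Genes that help to build these complexes had a median near 0. Of 44 assembly factors tested, 0 passed the edgeR or the DESeq2 threshold, against 0.285% and 0.511% of all genes. At an edgeR unadjusted p under 0.05, 3 were lower and 1 higher, where 1116 and 1075 of all 18973 genes were. The median was -0.02, with a range of -1.02 to 0.32, and 26 were below 0, against 52.0% of all genes. The gene with the smallest p for complex III was UQCC5, a factor needed for cytochrome b, at -0.46 ± 0.17 (adjusted p 0.347). For complex IV it was COA5 at 0.32 ± 0.13 (adjusted p 0.399), for complex II SDHAF2, which helps to attach the flavin to SDHA, at -0.34 ± 0.22 (adjusted p 0.569), and for complex V TMEM70, which helps to assemble the c ring, at 0.25 ± 0.13 (adjusted p 0.496). The ATP synthase inhibitor ATP5IF1 was at 0.27 and the coupling factor B gene DMAC2L at -0.29 ± 0.15 (adjusted p 0.4845).

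Other isoforms and copies of the subunits, most of them restricted to certain tissues, were low. Of 7 only UQCRHL, a processed copy of UQCRH, and COX7A1 passed the filter. UQCRHL was at -0.32 ± 0.23 (edgeR adjusted p 0.611), with 9.24 and 8.15 CPM against 7.46 and 6.54 CPM, and shares its sequence with UQCRH so that fragments of the pair may be split. Among regulators of respiratory genes, 7 of 8 were tested and PPARGC1A had 0 counts in all libraries. ESRRA, a nuclear receptor that acts on these genes, had the smallest p at -0.21 ± 0.14 (edgeR adjusted p 0.586), and the factors NRF1 and GABPA were at -0.12 and 0.02.

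Medians below 0 were also found in 2 other sets of abundant mRNAs. For the 37 nuclear subunits of complex I the median was -0.18 on the log2 scale, with 28 below 0, against 52.0% of all genes tested. In edgeR 13 of them were lower and 2 higher at an unadjusted p under 0.05, where 5.88% of all genes were lower, and in DESeq2 6 were lower and 1 higher, against 2.41% lower. In 18 of the 37 complex I genes both labelled libraries lay below both unlabelled ones, against 22.4% of all genes tested. In 6 they lay above, against 22.2%. The 79 cytosolic ribosomal protein genes tested had a median of -0.26, with 70 below 0, and 28 were lower and 2 higher at an unadjusted p under 0.05 in edgeR. None of these ribosomal genes passed edgeR's adjusted threshold, but 9 passed that of DESeq2 as lower, against 0.511% of all genes in either direction, where 0 members and 0 complex I genes passed it. Between the 2 unlabelled libraries the median of complex I genes was -0.02, where that of the members was -0.25 and that of the ribosomal genes -0.19. Against unlabelled 2 alone the labelled libraries were at -0.21 and -0.20 for complex I, beside -0.10 and -0.07 for the members. These differences between sets were not tested. Of 872 other protein-coding genes with up to 600 coding bases and over 20 CPM, 42.4% were below 0, with a median of 0.03, and 31 of the 32 members of that kind were below 0 with a median of -0.24.

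The promoters of respiratory genes are known for binding sites of nuclear respiratory factor 1 (NRF1) and of ETS-family proteins such as GABPA. A promoter window of 300 bases (250 before to 50 after the start) was matched for 34 of 43 members in RefSeq's GRCh38.p14 table. On either strand, the NRF1 motif GCGCANGCG was found in 13 of 34 members (38.2%), in 16.4% of the tested protein-coding genes and in 9.02% of all genes of the table. The ETS motif CCGGAAG was found in 16 members (47.1%), against 21.4% and 12.2%. The CCAAT box (CCAAT) was found in 15 (44.1%), against 43.2% and 39.7%, and the YY1 motif AAGATGGCG in 3 (8.82%), against 4.43% and 2.14%. The last letters of an ETS match can also be the first of a YY1 match. The log2 fold changes of members with and without a match had medians of -0.18 and -0.28 for NRF1, and -0.26 and -0.20 for ETS. A match is a run of letters and not a measured site.

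Windows of 50 bases are shown for 4 members whose NRF1 match lay upstream of the start, 1 each from complexes II and V and 2 from complex III, with the match in capitals (a match on the other strand reads as the reverse complement). They lie on GRCh38.p14 at chr5:218134-218183 (plus strand, SDHA), chr4:674466-674515 (minus strand, ATP5ME), chr3:48609663-48609712 (minus strand, UQCRC1) and chr19:29213152-29213201 (minus strand, UQCRFS1).
SDHA: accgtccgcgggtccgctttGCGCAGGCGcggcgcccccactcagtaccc
ATP5ME: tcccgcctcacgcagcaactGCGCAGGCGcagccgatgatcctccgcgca
UQCRC1: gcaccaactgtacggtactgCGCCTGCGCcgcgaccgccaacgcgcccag
UQCRFS1: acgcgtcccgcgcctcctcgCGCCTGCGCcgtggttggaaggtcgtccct
In log2 fold change these 4 genes ran from -0.73 for ATP5ME, the lowest member, through -0.18 for SDHA and -0.11 for UQCRC1 to 0.02 for UQCRFS1. The highest member, ATP5F1A at 0.29, was not among them. The 300-base promoters of SDHA, ATP5ME and UQCRC1 hold further NRF1 matches outside the windows shown, and the SDHAP copies make the count of SDHA uncertain.

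The counting limits some members more than others. Fragments were counted without strand and those touching more than 1 gene stayed unassigned. Of assigned and such ambiguous fragments together, the ambiguous ones were 11.3% and 12.8% in unlabelled and 9.24% and 9.025% in labelled libraries. Multi-mapping records, also not counted, numbered 22599823 and 7158307 in unlabelled 1 and 2 and 6059635 and 15992331 in labelled 1 and 2. The part of these losses in the log2 fold changes was not tested. Exons of 22 members share bases with another annotated gene, and 14 share at least 10%. Besides the genes already named, COX8A shares 35.4%, ATP5PO 21.6%, ATP5PD 19.1% and ATP5MK 18.1%. Pseudogenes named after a member held at least 5% of the joint fragments for 4 members, SDHA, COX6C (5.55%), ATP5PD (5.31%) and COX6A1 (5.07%). In the 14 members with no shared exon base and under 1% of fragments on pseudogenes so named, the median was -0.12. UQCRH is 1 of the 14, but its processed copy UQCRHL is not named in that way and was not counted. UQCRHL held 83 and 54 fragments in unlabelled and 64 and 68 in labelled libraries. UQCRH held 1645 and 1276 against 1295 and 1647. Of the 14 members, 13 were below 0, against 52.0% of all genes tested. Only 1 of the 14, COX5A, was lower at an edgeR unadjusted p under 0.05, where 5.88% of all genes were. That count depends on the 1% cut. COX5B (1.04% on pseudogenes) and COX7B (1.165%) share no exon base and fell just outside it. The cut also left out COX6B1, ATP5MC1 and SDHC, below 0, and CYCS and UQCRFS1, above 0. Of the members so left out, COX5B, COX7B, COX6B1 and ATP5MC1 were lower at that unadjusted p.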

How the data were processed

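The deposited table holds fragment counts per gene, which the authors made with featureCounts 1.6.4 on GENCODE 44, per the file headers, counting pairs with both ends mapped and no strand or multi-mapping option. Per the submitters' processing notes, reads were aligned to GRCh38 with STAR 2.7.9a, and DESeq2 1.42.0 was used. Nothing read here tells whether duplicates were removed. Xenograft material was not analysed here.

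Counts were tested with edgeR 4.0.16 (quasi-likelihood, filterByExpr, TMM) in R 4.3.3 over 18973 genes, with Benjamini-Hochberg adjustment, a threshold of 0.05, 2 libraries per group and no block. DESeq2 1.42.0 was an alternative. Other alternatives were scaling, filters, the block, removal of a length trend and leaving out each library. Library pairs used log2 CPM with a prior count of 2. The edgeR test was checked on simulated counts with the same spread for all genes and known changes in 200 genes. That setting lacks the unequal unlabelled pair and the mitochondrial shift of these libraries, so it does not vouch for the calls here. The labels do not tell whether libraries with the same replicate number were paired.

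Symbols were matched for all 62700 genes. Coding sequences came from GENCODE 29, promoters from RefSeq. Named were, for each of complexes II to V, the 3 members with the smallest p, the highest level per kilobase, the shortest and the longest, then CYCS, the mitochondrially encoded subunits and the gene with the smallest p in each helper list. Other members were named after their values were seen. The members and lists were chosen with earlier results of these data known. The labels name no molecular identifiers, and errors cover these libraries only.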

Additional observations from a re-analysis of the deposited data

How the results depend on the processing

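The count of 0 members past the edgeR threshold also came from DESeq2, DESeq2's size factors, the mitochondrial chromosome left out, a mean CPM of at least 1 and removal of the length trend. It was 34 with library size alone, which moved the median of all genes to -0.37, 2 with no filter (COX5B and ATP5ME, against 0.761% of genes) and 0 to 21 when a library was left out. With a replicate block it was 2 (COX5B and ATP5ME, against 1.24% of genes), beside 6 cytosolic ribosomal and 1 complex I gene, all lower. The labels do not tell whether same-numbered libraries were paired. Their deviations from the group means had a correlation of -0.07 over the genes tested, which cannot settle it. With library size alone the members' median was -0.54, and those of complexes II, III, IV and V and of CYCS -0.51, -0.46, -0.61, -0.57 and -0.20. ATP5F1A turned to -0.061 and CYCS to -0.20 under that scaling. Leaving out a library gave medians of -0.30 to -0.027 over all members, with unlabelled 1 and 2 setting the ends. By complex, the ranges were -0.26 to 0.016 for II, -0.24 to -0.021 for III, -0.40 to -0.091 for IV, -0.32 to -0.023 for V and 0.072 to 0.28 for CYCS. With a library left out, SDHB ran from -0.35 to 0.12 and SDHC from -0.29 to 0.049 (without unlabelled 2 and 1), and UQCRB from -0.15 to 0.069 (without labelled 2 and 1). ATP5F1B, at -0.0018, took 0.0012 with DESeq2's size factors, 0.00048 with the mitochondrial chromosome left out, 0.0014 in DESeq2, 0.024 with no filter, 0.032 with the block, 0.012 with the length trend removed, and from -0.28 to 0.38 without unlabelled 2 and 1, with 0.044 without labelled 1. Shares of fragments outside the mitochondrial chromosome gave ratios of 0.911, 0.883, 1.11, 0.828, 0.9245 and 0.897 for complex II, complex III, cytochrome c, complex IV, complex V and all members. Over the named members and alternatives, 174 values kept direction and call, 41 kept direction and became past the threshold, and 13 changed sign, of which ATP5F1B without unlabelled 1 also passed it (adjusted p 0.0163 in edgeR). The subset of 14 members with no shared exon base and under 1% on named pseudogenes was chosen after seeing the data. The cause of these changes was not tested.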
